A study of Mus musculus with 6 samples.

Results

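The metalloproteases of the ADAM, ADAMTS and MMP families and their inhibitors, the TIMPs, were described in PAM212 cells, a mouse line labelled as keratinocytes, with and without overexpression of the microRNA miR-28-3p. Members were taken by gene symbol alone, as every listed gene named Adam, Adamts, Mmp or Timp with a number. This gave 79 of the 21936 genes in the count table, 34 of them Adam, 19 Adamts, 22 Mmp and 4 Timp genes. The overexpression group held 3 libraries of cells infected with a lentivirus that carried the mouse miR-28-3p gene. The control group held 3 libraries of PAM212 cells whose treatment label reads as not treated and whose titles read NC, so it is unclear whether these cells carried an empty vector. All cells were grown in DMEM with fetal bovine serum, and polyadenylated RNA was sequenced. The genotype, passage and number of clones are not given either, and the design line of the series names melanocytes where every sample label names keratinocytes. Nothing in the labels ties the libraries of a group to separate cultures, so the p-values measure only the spread between these libraries, which may be technical.

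Depth was 14309898 to 16383374 counts per library, and 3 counts correspond to 0.188 to 0.216 CPM, the counts of a gene scaled to the size of its library. Of 11 keratinocyte markers 10 were tested, 4 higher and 6 lower with overexpression, where 42.1% of all tested genes were higher and 43.9% lower. With the trend with gene length removed, 6 were higher and 3 lower, without a background by direction. Summed levels were 3625 to 3647 CPM in the overexpression libraries and 4855 to 4890 CPM in the control libraries. The largest differences in that sum were in Krt18 (1070 CPM with overexpression, 1798 CPM in controls) and Epcam (315 CPM with overexpression, 832 CPM in controls). The basal keratin Krt5 was at 0 in all 6 libraries, while Krt14 averaged 39.1 CPM with overexpression and 30.5 CPM in controls. Trp63, the transcription factor of basal epithelium, averaged 0.110 CPM with overexpression and 1.13 CPM in controls. The simple epithelial keratin Krt8 averaged 1088 CPM with overexpression and 1239 CPM in controls. Krt14, Cdh1, Sfn and Dsp were called higher, and Trp63, Perp, Itgb4, Krt8, Krt18 and Epcam lower. Summed melanocyte markers reached at most 8.22 CPM with overexpression and 9.78 CPM in controls, with Tyr at 0. Dct had 10, 8 and 13 counts and Tyrp1 7, 18 and 15 with overexpression, and both were at 0 in every control library. Neither was tested, while the 2 tested markers, Mitf and Pmel, were lower. Mitf averaged 4.92 CPM with overexpression and 7.02 CPM in controls. Summed fibroblast markers stood at 16.2 to 17.1 CPM with overexpression and 43.3 to 52.0 CPM in controls, nearly all of it Pdgfra, while Lum, Dpt and Thy1 were at 0. Summed macrophage markers stood at 16.5 to 20.6 CPM with overexpression and 39.6 to 40.0 CPM in controls, with Adgre1 at 0, and endothelial markers stayed under 1 CPM in every library. The labels name no batch, and one that ran along with the groups cannot be told apart from them.

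As background, MMPs are zinc proteases that are secreted or held at the cell surface as inactive zymogens and, once activated, cut collagens, gelatin, laminins and other matrix proteins. ADAMs are membrane-anchored relatives, several of which cut the ectodomains of growth factors, cytokine receptors and adhesion molecules from the cell surface, and ADAMTS enzymes are secreted proteases that cut proteoglycans and process procollagens. TIMPs bind the active site of MMPs and, with more selectivity, of ADAMs and ADAMTS enzymes. In epidermis these enzymes are known for keratinocyte migration during wound repair and for the release of ligands of the EGF receptor.

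The mature microRNA pairs with its targets mainly through the seed, bases 2 to 8, so its sequence and the matching sites in the members are shown here. The RefSeq sequence of mouse miR-28a-3p (chr16:24827908-24827929, plus strand, GRCm38.p6) is printed with the seed in capitals, followed by the 3′ UTR sites of the tested members that hold the complementary 7-mer, in capitals, from GENCODE M21 (GRCm38).
mmu-miR-28a-3p: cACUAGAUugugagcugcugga
Adam12 site: ctagtaaccagATCTAGTcgatcaactctg
Mmp19 site: tcaagtgtgacATCTAGTctctggtggagg
The Adam12 site lies at chr7:133886901-133886907 on the minus strand, at base 1035 of a 3′ UTR of 4743 bases. The Mmp19 site lies at chr10:128799248-128799254 on the plus strand, at base 148 of 1724. These were 2 of the 35 tested members with an annotated 3′ UTR (5.71%), while 785 of 11679 tested genes with one held the 7-mer (6.72%). Adam12 was the member with the largest called rise and Mmp19 was called lower, so the 2 site-bearing genes moved in opposite directions. Mmp19 passed the filter on low counts, described below, through the control libraries only. That favours a call of lower, so its direction is no support here. Sites were also present in Adam23, Adamts2, Adamts5 and Adamts20, whose counts were too low to test.

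Of the 79 members, 36 passed the filter on low counts and were tested with edgeR's quasi-likelihood test, Benjamini-Hochberg adjusted over all 11809 genes tested. With overexpression 15 were called higher and 16 lower at an adjusted p under 0.05, and 5 were not called. The share called, 86.1%, is close to the 86.0% called over all tested genes, of which 42.1% were higher and 43.9% lower. A call by itself therefore does not set these genes apart from the rest. With upper quartile scaling, under which the median over all genes was -0.26 in place of -0.03, the split was 10 higher and 19 lower members. That scaling called 10249 of all 11809 tested genes, and their split by direction is not given here. The 10 and 19 therefore have no background by direction to be read against. All 3 overexpression libraries lay above all 3 control libraries in 15 tested members and below them in 16, where the background is 42.2% and 43.8% of tested genes. A change of at least 2-fold was called in 8 members upward (22.2%) and 12 downward (33.3%), while 14.8% of all tested genes reached this upward and 21.0% downward. The median log2 fold change was -0.11 over the tested members and -0.03 over all tested genes. Of the 36, 27 passed the filter through both groups, 3 through the overexpression libraries only, 5 through the control libraries only and 1 through a mixture of libraries. Of the 8 that passed through a lone group, all but Adam1a were called in the direction of that group, which the filter favours, so they are no support for the counts. In these bulk libraries fewer cells of a type and less RNA per cell cannot be told apart.

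The remaining 43 members were too low to test. No read was counted for 20 of them in any library, among them 13 Adam genes, many of which are known as testis genes, and 5 Mmp genes, which allows each up to 0.188 to 0.216 CPM per library, for counting error only. Another 21 had some counts but fewer than 10 in every library. The other 2 reached 10 counts in a library. Mmp17, a membrane-type MMP anchored through glycosylphosphatidylinositol, had 0, 1 and 3 counts with overexpression, against 9, 7 and 11 in controls. Mmp2, the gelatinase that is activated at the cell surface by Mmp14 together with Timp2, had 3, 3 and 3 counts with overexpression, against 8, 8 and 10 in controls. Both were lower in every overexpression library, without a test. Timp3, the matrix-bound inhibitor, was at 0 in all 6 libraries, and Timp4 had 0, 2 and 0 counts with overexpression and 0 in every control library. The 11 untested Adamts genes had at most 6 counts in a library.

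**Figure D1:**
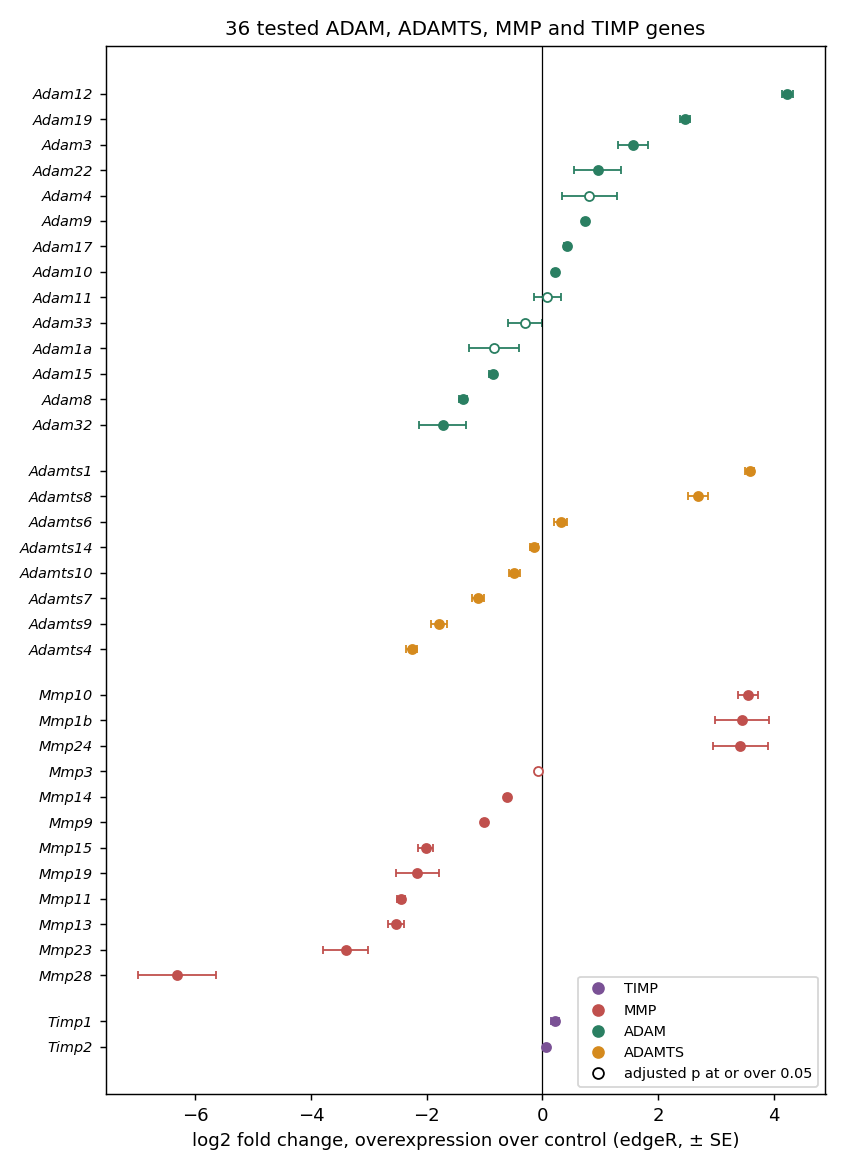
Log2 fold change of each of the 36 tested members, overexpression over control, from edgeR with its SE as a horizontal bar, grouped by family, with open circles for adjusted p at or over 0.05. Changes run from -6.31 for Mmp28 to 4.24 for Adam12, and the inhibitors Timp1 and Timp2 sit close to 0, with signs that turn under upper quartile scaling.

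Per gene length, in the deposited FPKM values, the inhibitor Timp2 was the most abundant member in both groups, and Mmp3 came next in both. With overexpression the order went on with Timp1, Adam9, Adam10, Mmp9, Mmp14 and Adamts1. In controls it went on with Mmp9, Mmp14, Timp1, Adam10 and Adam9, and Adamts1 stood at rank 20. The summed level of the Mmp genes was 474 ± 3.37 CPM with overexpression and 779 ± 6.46 CPM in controls (SD, n = 3 each). That of the Adam genes was 679 ± 10.2 CPM with overexpression and 512 ± 8.78 CPM in controls, and that of the Adamts genes was 183 ± 1.86 CPM with overexpression and 155 ± 4.56 CPM in controls. The Timp sum was 720 ± 7.97 CPM with overexpression and 682 ± 19.7 CPM in controls. Over all 79 members the sums differed less, at 2056 ± 10.3 CPM with overexpression and 2128 ± 13.2 CPM in controls, since the lower Mmp total was partly offset by the higher Adam total. With upper quartile scaling the Mmp and Adam sums kept their order, and the Adamts sums were nearly equal (169 CPM with overexpression and 168 CPM in controls). The Timp sum turned round there (665 CPM with overexpression and 738 CPM in controls). Under that scaling the sums over all 79 members lay further apart, at 1899 ± 13.1 CPM with overexpression and 2305 ± 15.4 CPM in controls. These sums are weighted by the few abundant genes: Mmp3, Mmp9 and Mmp14 made up 46.1%, 22.2% and 19.8% of the Mmp FPKM with overexpression and 32.3%, 29.8% and 20.2% in controls. In the Adamts family the make-up changed most visibly, with Adamts1 at 48.7% of the family FPKM with overexpression and 5.11% in controls.

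The inhibitors differed little between the groups. Timp2 (ENSMUSG00000017466, chromosome 11, 118301069 to 118355740, minus strand) had 672, 685 and 661 CPM with overexpression, against 619, 645 and 659 CPM in controls. The groups did not overlap in CPM but were separated by only a few CPM, and the log2 fold change was 0.07 ± 0.02 (SE, edgeR adjusted p = 0.0052). In FPKM the groups of Timp2 overlapped, and it averaged 167 with overexpression and 170 in controls. Its direction depends on the scaling, since it stood at -0.16 with upper quartile scaling (edgeR adjusted p = 1.76e-08) and at 0.38 with the length trend removed (edgeR adjusted p = 1.35e-26), and without control replicate 1 the call was lost (edgeR adjusted p = 0.0744). Timp1 (ENSMUSG00000001131, chromosome X, 20870166 to 20874735), a secreted inhibitor that also binds the zymogen of Mmp9, had 45.1, 43.4 and 51.5 CPM with overexpression, against 40.3, 41.6 and 38.9 CPM in controls. Overexpression replicate 3 stood highest, and the log2 fold change was 0.22 ± 0.06 (edgeR adjusted p = 0.00165). Timp1 stood at -0.01 with upper quartile scaling and lost its call without overexpression replicate 3 (0.14, edgeR adjusted p = 0.0526), and it stood at 1.11 once the trend with gene length was removed.

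Ratios between an enzyme and its inhibitor within a library do not depend on library scaling. For Mmp14 over Timp2 the FPKM ratio was 0.176, 0.175 and 0.179 with overexpression and 0.292, 0.288 and 0.275 in controls. For Mmp9 over Timp1 it was 0.657, 0.710 and 0.599 with overexpression and 1.48, 1.52 and 1.57 in controls. Both ratios, chosen after the values were seen, were lower in every overexpression library than in any control library, so relative to these inhibitors the enzyme transcripts were lower.

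Among the collagenases, which cut fibrillar collagen, the 2 tested genes went in opposite directions. Mmp13 (ENSMUSG00000050578, chromosome 9, 7272514 to 7283331) had 2.16, 4.55 and 3.28 CPM with overexpression, against 19.1, 20.8 and 18.4 CPM in controls. The groups were far apart, and Mmp13 fell 5.77-fold (log2 fold change -2.53 ± 0.14, edgeR adjusted p = 4.22e-24). Mmp1b (ENSMUSG00000041620, chromosome 9, 7368239 to 7388047, minus strand), one of a pair of mouse genes related to human interstitial collagenase, had 2.31, 1.78 and 2.46 CPM with overexpression, against 0.0628, 0.132 and 0.381 CPM in controls. It was at or near the level of a few reads in controls, and 98 counts with overexpression against 9 in controls give a ratio of 11.4 (exact 95% interval 5.75 to 25.6, for counting error). Its log2 fold change was 3.45 ± 0.47 (edgeR adjusted p = 1.75e-09) and 4.39 without control replicate 3. Mmp1b passed the filter through the overexpression libraries only, the group in which it was higher. No source used here says how reads were shared with its paralog Mmp1a, not analysed here, and 10.8% of its exon bases overlap Mmp12 on the other strand, which had 3 counts with overexpression and 1 in controls. The collagenase Mmp8, of neutrophils, was not tested.

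The gelatinase Mmp9 (ENSMUSG00000017737, chromosome 2, 164940780 to 164955850) cuts denatured collagen and basement membrane collagen IV. It had 118, 123 and 123 CPM with overexpression, against 238, 252 and 243 CPM in controls. Every overexpression library was far below every control library, and the fall was 2.01-fold (log2 fold change -1.01 ± 0.03, edgeR adjusted p = 1.83e-36). The value moved to -0.63 with the length trend removed.

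The stromelysins cut a broad range of matrix proteins and can activate other MMPs, and the 3 genes of this name did not move together. Mmp10 (ENSMUSG00000047562, chromosome 9, 7502352 to 7510240), known from migrating keratinocytes at wound edges, had 16.0, 16.1 and 15.5 CPM with overexpression, against 1.38, 1.19 and 1.46 CPM in controls. Its libraries were tight within each group, and it rose 11.7-fold (log2 fold change 3.55 ± 0.17, edgeR adjusted p = 7.48e-28). The close relative Mmp3 (ENSMUSG00000043613, chromosome 9, 7445822 to 7455975) was more abundant in both groups, with 131, 125 and 129 CPM in overexpression libraries and 134, 129 and 142 CPM in controls. The groups overlapped in CPM, and its log2 fold change of -0.07 ± 0.04 was not called (edgeR adjusted p = 0.0721). In FPKM every overexpression library of Mmp3 (70.4, 67.2 and 69.5) lay below every control library (77.1, 73.9 and 81.1). Mmp3 was called lower without control replicate 2 (-0.10, edgeR adjusted p = 0.0198) and with upper quartile scaling (-0.30), and called higher with the length trend removed (0.66). Mmp11 (ENSMUSG00000000901, chromosome 10, 75923222 to 75936496), which is activated inside the cell by furin, had 12.3, 14.6 and 13.8 CPM with overexpression, against 77.3, 70.4 and 73.7 CPM in controls. With no overlap it fell 5.44-fold (log2 fold change -2.44 ± 0.07, edgeR adjusted p = 4.55e-39).

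Several of these genes are neighbours. The Mmp cluster of chromosome 9 holds 9 members within 427 kb (GRCm38, 7272514 to 7699585), in the order Mmp13, Mmp12, Mmp1b, Mmp3, Mmp10, Mmp8, Mmp27, Mmp20 and Mmp7, of which 4 were tested. Along the chromosome, Mmp13 was lower, Mmp1b higher, Mmp3 not called and Mmp10 higher. The FPKM ratio of Mmp13 to Mmp10 was 0.0871, 0.182 and 0.137 in the overexpression libraries and 8.90, 11.3 and 8.12 in the control libraries, so the pair changed places. The promoters of the 4 tested neighbours are shown because they share a binding motif of the AP-1 transcription factors, TGAGTCA or TGACTCA on the other strand, while the genes moved differently. The 140 bases before the RefSeq transcription start are printed 5′ to 3′ along each gene's strand (GRCm38.p6), with the motif in capitals.
Mmp13 (chr9:7272374-7272513, plus strand): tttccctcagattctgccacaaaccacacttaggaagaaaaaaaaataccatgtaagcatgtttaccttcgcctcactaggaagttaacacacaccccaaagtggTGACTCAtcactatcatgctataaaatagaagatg
Mmp1b (chr9:7388027-7388166, minus strand): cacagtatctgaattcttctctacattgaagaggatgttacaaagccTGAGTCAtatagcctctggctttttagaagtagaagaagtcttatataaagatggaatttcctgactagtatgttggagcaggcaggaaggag
Mmp3 (chr9:7445682-7445821, plus strand): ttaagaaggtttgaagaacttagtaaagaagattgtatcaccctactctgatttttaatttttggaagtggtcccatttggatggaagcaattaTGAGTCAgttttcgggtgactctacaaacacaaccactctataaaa
Mmp10 (chr9:7502202-7502341, plus strand): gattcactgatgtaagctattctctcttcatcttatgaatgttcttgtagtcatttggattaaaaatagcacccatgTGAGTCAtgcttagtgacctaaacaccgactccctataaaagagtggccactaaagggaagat
Counted from the start base, the motif began at -35 in Mmp13, -93 in Mmp1b, -46 in Mmp3 and -63 in Mmp10. It also stood in a listed window of Mmp12 at -44 and of Mmp7 at -63, while another listed window of each gene lacked it. The windows of Mmp8, Mmp20 and Mmp27 lacked it too. In windows of 250 bases before to 50 after the start, 9 of 54 listed promoters of members held it (16.7%), and so did 1709 of all 32851 promoters (5.20%) and 482 of the 12117 promoters of tested genes (3.98%). Outside this cluster only promoters of Adam19, Adam1b and Adam29 held it among the members, so the share rests largely on these neighbours. A match is a description of the letters and not a binding site.

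**Figure D2:**
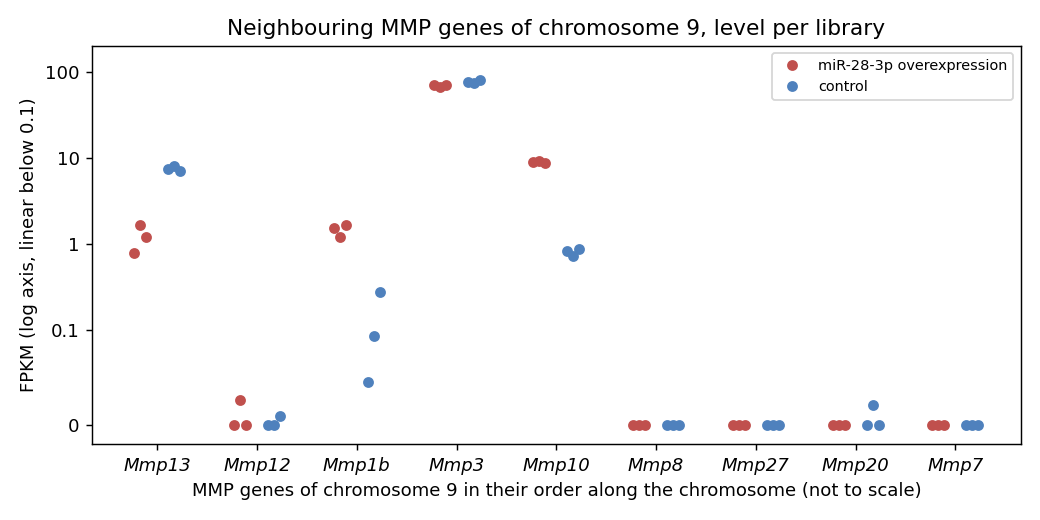
FPKM per library of the 9 MMP genes of the chromosome 9 cluster in their order along the chromosome, overexpression beside control, on a log axis that is linear below 0.1, with 3 libraries per group. Mmp13 is lower, and Mmp1b and Mmp10 are higher with overexpression. Mmp3 lies at a high level in both groups, with mean FPKM of 69.0 with overexpression and 77.3 in controls. In CPM the groups of Mmp3 overlap, and its direction turns once the length trend is removed.

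The membrane-type MMPs act at the cell surface. Mmp14 (ENSMUSG00000000957, chromosome 14, 54431612 to 54445364), the main pericellular collagenase and activator of Mmp2, had 181, 183 and 181 CPM with overexpression, against 277, 284 and 277 CPM in controls. The groups were tight and apart, and Mmp14 fell 1.53-fold (log2 fold change -0.62 ± 0.03, edgeR adjusted p = 2.08e-28). Against a minimum change of 1.5-fold it was not called (edgeR adjusted p = 0.0868). Mmp15 (chromosome 8, 95352268 to 95375080), a close relative of Mmp14, had 4.11, 4.09 and 4.17 CPM with overexpression, against 15.5, 17.8 and 16.8 CPM in controls, a 4.04-fold fall (log2 fold change -2.01 ± 0.13, edgeR adjusted p = 2.68e-21). Mmp24 (chromosome 2, 155775342 to 155818366), known from neurons, had 2.09, 2.44 and 1.89 CPM with overexpression, against 0.314, 0.0660 and 0.191 CPM in controls. It thus went the other way, with 96 counts against 9 and a ratio of 11.1 (exact 95% interval 5.63 to 25.1; log2 fold change 3.42 ± 0.47, edgeR adjusted p = 1.74e-09). No source used here gives the strand used in counting, and 13.6% of its exon bases overlap BC029722 on the other strand, which was also called higher (log2 fold change 0.38). Mmp24 passed the filter through the overexpression libraries only, the group in which it was higher.

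The other tested MMPs were all at low levels and lower with overexpression. Mmp23 (chromosome 4, 155650655 to 155653384), a membrane-bound MMP with an unusual domain make-up, had 0.216, 0.330 and 0.316 CPM with overexpression, against 2.89, 2.77 and 3.75 CPM in controls. That is a 10.6-fold fall (log2 fold change -3.40 ± 0.39, edgeR adjusted p = 8.13e-12). Mmp19 (chromosome 10, 128790910 to 128800824), which bears the site shown above, had 0.433, 0.528 and 0.505 CPM with overexpression, against 2.51, 2.11 and 2.03 CPM in controls (log2 fold change -2.16 ± 0.37, edgeR adjusted p = 5.19e-07). Of its exon bases 22.3% overlap Tmem198b on the other strand, which was also called lower (log2 fold change -0.75). Mmp28 (chromosome 11, 83440768 to 83463071), epilysin, known from skin keratinocytes, had 0, 0 and 1 counts with overexpression, against 42, 37 and 34 in controls. The ratio of control to overexpression counts was 108 (exact 95% interval 19.0 to 4312; edgeR adjusted p = 5.86e-13). Its fitted log2 fold change was -6.31 and became -8.20 without overexpression replicate 3, the library that held the lone count. On the other strand 1700020L24Rik, which overlaps 12.0% of its exon bases, had 3 counts with overexpression and 37 in controls. Mmp23, Mmp19 and Mmp28 passed the filter through the control libraries only.

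**Figure D3:**
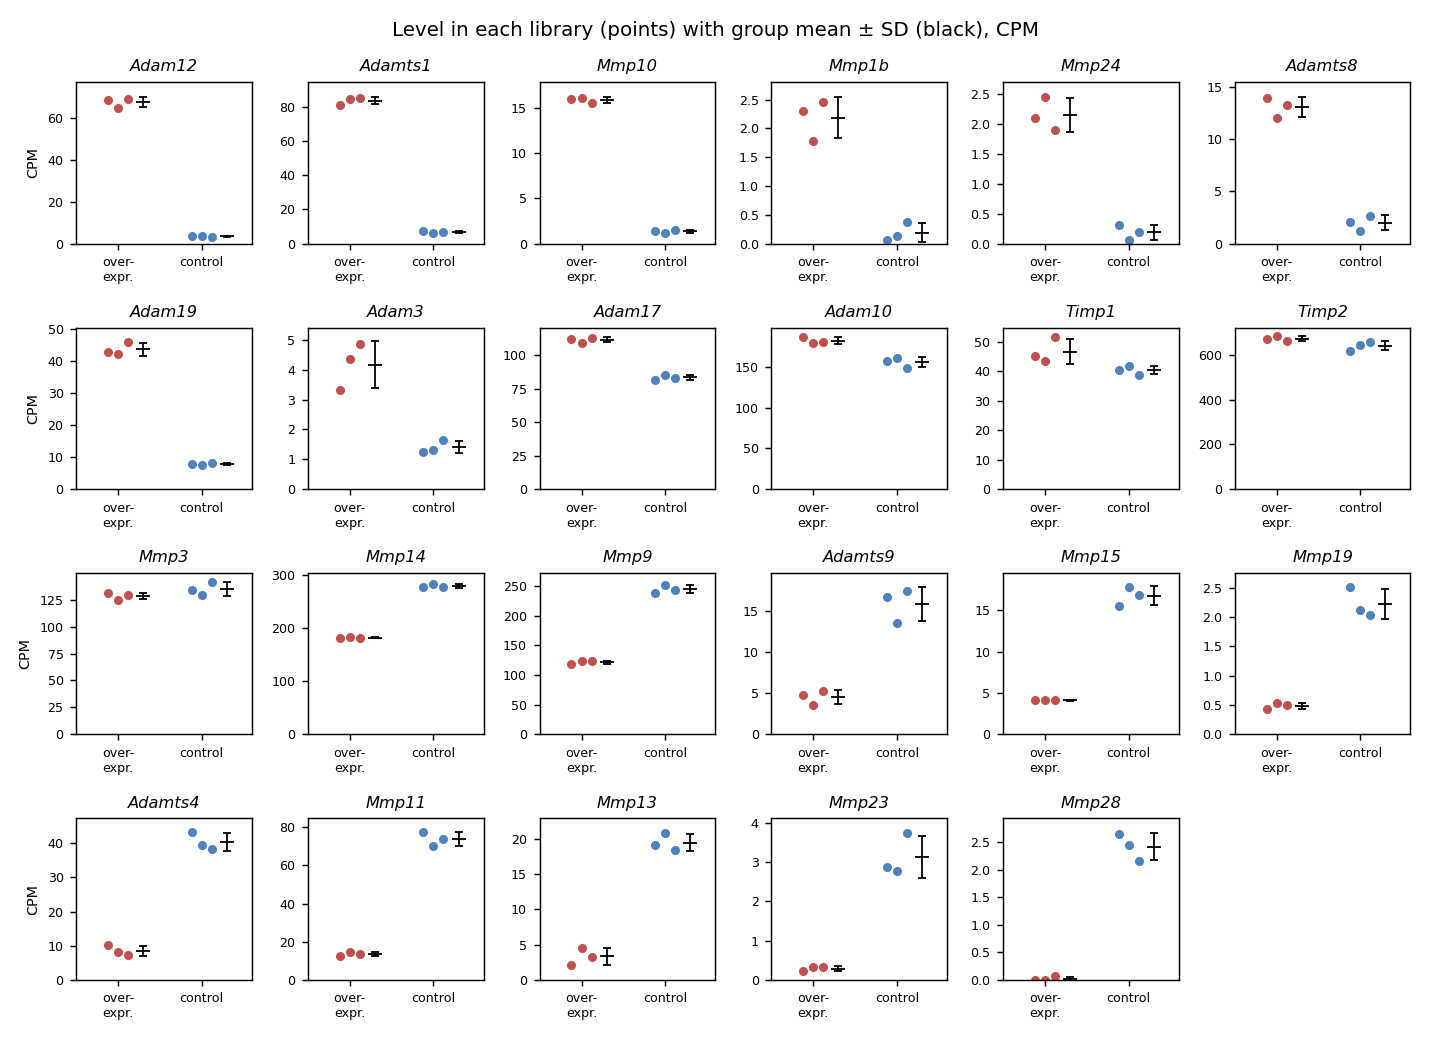
CPM in each library (points) with group mean and SD (black) for the members named by rule, overexpression left and control right in every panel, each panel with its own axis. Adam12, Adamts1 and Mmp10 are far higher in every overexpression library and Mmp11, Mmp13 and Adamts4 far lower, while the panels of Timp1, Timp2, Adam10 and Mmp3 show small differences whose sign turns with upper quartile scaling or removal of the length trend.

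Among the 9 ADAM genes with an active protease that is used in somatic tissue, 5 were higher, 2 lower and 1 not called, and 1 was not tested, where 42.1% of all tested genes were higher and 43.9% lower. The main sheddases were called higher by small amounts. Adam17 (ENSMUSG00000052593, chromosome 12, 21323509 to 21373632, minus strand), which releases TNF and several ligands of the EGF receptor, had 112, 109 and 113 CPM with overexpression, against 81.7, 84.9 and 83.2 CPM in controls. Without overlap it rose 1.34-fold (log2 fold change 0.42 ± 0.04, edgeR adjusted p = 8.75e-14). Adam10 (ENSMUSG00000054693, chromosome 9, 70678997 to 70780229), the sheddase of Notch receptors and E-cadherin, had 188, 180 and 181 CPM with overexpression, against 158, 161 and 150 CPM in controls. It rose 1.17-fold (log2 fold change 0.23 ± 0.03, edgeR adjusted p = 1.28e-08). With upper quartile scaling it stood at 0 to 2 decimals, slightly negative and not called (edgeR adjusted p = 0.916). Against a minimum change of 1.5-fold neither Adam17 nor Adam10 was called.

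The largest rises in the family were in 2 related ADAMs. Adam12 (ENSMUSG00000054555, chromosome 7, 133883199 to 134232146, minus strand), named meltrin alpha from muscle fusion and able to shed Hbegf, had 68.5, 64.6 and 69.1 CPM with overexpression, against 3.71, 3.63 and 3.37 CPM in controls (log2 fold change 4.24 ± 0.09, edgeR adjusted p = 1.33e-45). In FPKM it stood at rank 13 of the members with overexpression and at rank 31 in controls. Adam19 (ENSMUSG00000011256, chromosome 11, 46055992 to 46147343), meltrin beta, a sheddase of neuregulins, had 42.7, 42.0 and 46.0 CPM with overexpression, against 7.92, 7.58 and 8.19 CPM in controls. Every overexpression library was far above the controls, and Adam19 rose 5.52-fold (log2 fold change 2.46 ± 0.09, edgeR adjusted p = 5.45e-34). The antisense transcripts Gm16033 and Gm16034, which the count table does not list, overlap 8.25% and 6.75% of the exon bases of Adam19. Adam12 and Adam19 kept rises of at least 2.35 on the log2 scale with the length trend removed, at 3.90 for Adam12 and 2.35 for Adam19. Adam9, a widely expressed sheddase, rose 1.66-fold. Adam15, an ADAM with an integrin-binding motif, fell 1.81-fold, although 20.6% of its exon bases overlap an antisense transcript that the count table does not list. Adam8, known from leukocytes and inflamed epithelium, fell 2.59-fold. Adam33 was not called, at a log2 fold change of -0.30 (edgeR adjusted p = 0.327).

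Of the ADAMs known from sperm or other restricted tissues, Adam3 (chromosome 8, 24677225 to 24725852, minus strand), a sperm surface protein in mice, had 3.32, 4.36 and 4.86 CPM with overexpression, against 1.26, 1.32 and 1.65 CPM in controls. The groups did not overlap, and it rose 2.97-fold (log2 fold change 1.57 ± 0.26, edgeR adjusted p = 1.32e-07). Adam32, on the same stretch of chromosome 8, fell 3.30-fold at under 3 CPM in every library and passed the filter through the control libraries only. Between Adam3 and Adam32 lies Adam5 (24727093 to 24824369), which was not tested. Only 806 bases separate the end of Adam32 (chromosome 8, 24836140 to 24948804) from the start of Adam9 (24949611 to 25016927), and these neighbours on the minus strand were called in opposite directions. Adam1a and Adam4 were not called (log2 fold changes -0.84 and 0.81, edgeR adjusted p = 0.0645 and 0.108). Adam1a was called lower without overexpression replicate 3 (-1.49, edgeR adjusted p = 0.0104) or control replicate 2 (-1.05, edgeR adjusted p = 0.0418), with upper quartile scaling (edgeR adjusted p = 0.0192) and with the length trend removed (edgeR adjusted p = 0.0277), and stood at -0.39 without overexpression replicate 1 and -0.45 without control replicate 1. Adam4 was called higher without control replicate 1 (1.27, edgeR adjusted p = 0.0403) and with the length trend removed (1.40, edgeR adjusted p = 0.00564), and stood at 0.53 without control replicate 2. Adam1a shares 63.7% of its exon bases with Gm42878 on the same strand, which was at 0, and how reads in the shared bases were assigned is not stated. The brain ADAMs lack protease activity and act as receptors. Adam11 was not called (log2 fold change 0.08, edgeR adjusted p = 0.741). Adam22, which passed the filter through the overexpression libraries only, was called higher (0.96, edgeR adjusted p = 0.0266) but lost the call with upper quartile scaling (edgeR adjusted p = 0.0902), in DESeq2 (adjusted p = 0.0707), with the length trend removed (edgeR adjusted p = 0.279), without overexpression replicate 3 (0.50, edgeR adjusted p = 0.352) and without control replicate 2 or 3 (edgeR adjusted p = 0.0513 and 0.103).

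In the ADAMTS family all 8 tested genes passed the threshold, 3 higher and 5 lower, where 86.0% of all tested genes passed. The 4 tested hyalectanases, which cut aggrecan and versican, split into 2 higher and 2 lower. Adamts1 (ENSMUSG00000022893, chromosome 16, 85793827 to 85803113, minus strand) had 81.2, 84.5 and 85.5 CPM with overexpression, against 7.48, 6.33 and 7.05 CPM in controls. It rose 12.0-fold with tight groups (log2 fold change 3.59 ± 0.08, edgeR adjusted p = 4.79e-46). Adamts8 (ENSMUSG00000031994, chromosome 9, 30942562 to 30963838) had 13.9, 12.0 and 13.3 CPM with overexpression, against 2.07, 1.25 and 2.67 CPM in controls, and rose 6.48-fold (log2 fold change 2.70 ± 0.18, edgeR adjusted p = 1.46e-21). The antisense transcript Gm29724, which the count table does not list, overlaps 10.6% of its exon bases.

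The aggrecanase Adamts4 (ENSMUSG00000006403, chromosome 1, 171250421 to 171260637) had 10.1, 8.25 and 7.14 CPM with overexpression, against 43.2, 39.4 and 38.4 CPM in controls. It fell 4.78-fold, with no overlap (log2 fold change -2.26 ± 0.10, edgeR adjusted p = 1.36e-30). Adamts9 (ENSMUSG00000030022, chromosome 6, 92772699 to 92943492, minus strand) had 4.83, 3.63 and 5.31 CPM with overexpression, against 16.8, 13.5 and 17.4 CPM in controls. It fell 3.46-fold (log2 fold change -1.79 ± 0.14, edgeR adjusted p = 3.27e-18). The FPKM ratio of Adamts1 to Adamts4 was 7.30, 9.29 and 10.9 in the overexpression libraries and 0.157, 0.146 and 0.166 in the control libraries, so the leading member of this clade differed between the groups. Adamts5, the other main aggrecanase, was not tested, with 6, 5 and 3 counts with overexpression and 1, 1 and 2 in controls.

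The remaining ADAMTS genes moved less. Adamts7, which cuts the cartilage protein COMP, fell 2.17-fold, and Adamts10, a protease of fibrillin microfibrils, fell 1.40-fold. Adamts6, related to Adamts10, rose 1.24-fold (edgeR adjusted p = 0.0066), a call lost with upper quartile scaling (edgeR adjusted p = 0.463), with the length trend removed (edgeR adjusted p = 0.214) and without control replicate 1 (edgeR adjusted p = 0.0736). Adamts14, a procollagen N-proteinase, fell 1.11-fold (edgeR adjusted p = 0.0373), a call lost in DESeq2 (adjusted p = 0.0879), without the filter (edgeR adjusted p = 0.0973), with the length trend removed (edgeR adjusted p = 0.531) and without control replicate 1 or 3 or overexpression replicate 1 or 3 (edgeR adjusted p = 0.0763 to 0.149). It was the second most abundant ADAMTS gene with overexpression, at 20.2% of the family FPKM, against 28.2% in controls.

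Gene length moved with the contrast over all genes. Spearman's rho between log2 fold change and gene length was 0.33 across the 11809 tested genes, and 0.09 across the 36 tested members, where genes are not independent replicates. The median log2 fold change was -0.63 for the 1399 genes under 2000 bases and 0.57 for the 1193 genes of at least 10000 bases. Removing this trend moved the median of all genes to 0.16, Mmp10 to 4.29, Mmp1b to 4.21, Mmp11 to -1.91, Mmp13 to -1.97 and Mmp23 to -2.78, each gene in the direction given above. The part of length in the differences of single members was not tested beyond these values.

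**Figure D4:**
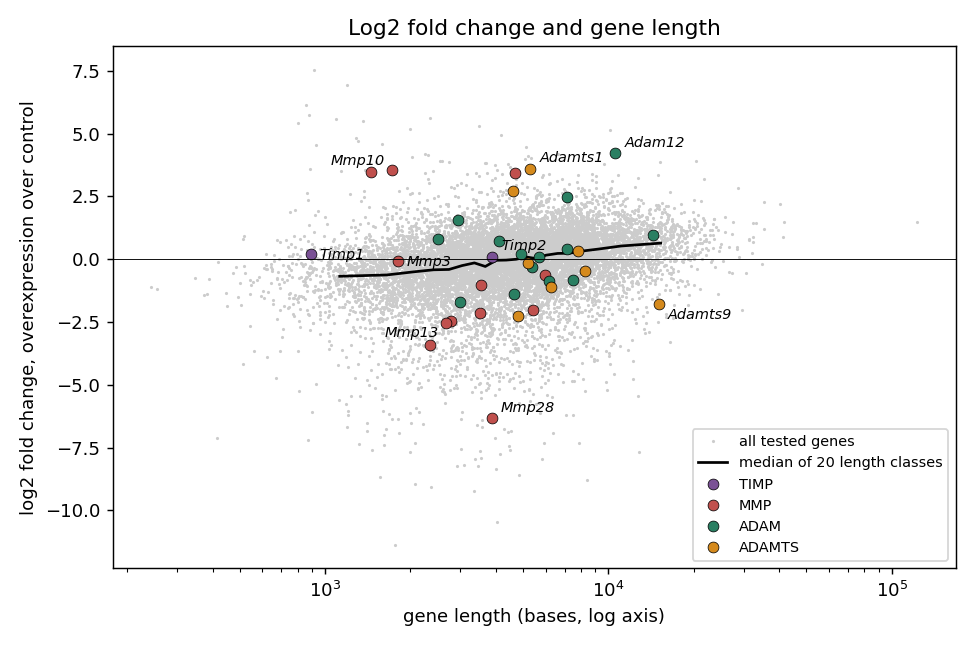
Log2 fold change, overexpression over control, against gene length on a log axis for all 11809 tested genes (grey), with the median of 20 length classes as a line and the 36 tested members in colour. The line rises with length, from negative values for short genes to positive values for long genes, and members such as Mmp10 and Mmp28 lie far from it on both sides.

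Genes that activate, restrain or serve as substrates of these proteases were taken from a list of 97 related genes, of which 96 matched the table and 67 were tested. With overexpression 25 were higher and 33 lower (median log2 fold change -0.17, against -0.03 over all genes). These counts are to be read against the 86.0% called over all genes, 42.1% higher and 43.9% lower. Of 12 tested activators and convertases 5 were higher and 6 lower. The urokinase gene Plau, whose product generates plasmin, averaged 248 ± 2.34 CPM with overexpression and 123 ± 6.22 CPM in controls (SD, n = 3 each, edgeR adjusted p = 3.54e-36). Its receptor Plaur averaged 140 ± 5.90 CPM with overexpression and 65.2 ± 3.08 CPM in controls (edgeR adjusted p = 5.02e-32). The other plasminogen activator, Plat, averaged 4.63 ± 0.804 CPM with overexpression and 33.1 ± 2.67 CPM in controls, a 7.09-fold fall (edgeR adjusted p = 6.75e-32). The epithelial surface serine protease Tmprss11e rose 3.86-fold and the lysosomal cysteine protease Ctsb fell 2.06-fold. Furin, which removes the prodomain of Mmp11, the membrane-type MMPs and many ADAMs, was not called (log2 fold change -0.06, edgeR adjusted p = 0.0537).

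Of 17 tested inhibitors and regulators 3 were higher and 13 lower, where 42.1% of all tested genes were higher and 43.9% lower. The median log2 fold change of the 17 was -0.66. With the length trend removed 4 were higher and 10 lower, and the median was -0.17. The median over all tested genes was 0.16 there, and their split by direction is not given here, so the 4 and 10 have no such background. Reck, a membrane-anchored inhibitor of MMPs, averaged 4.53 ± 1.39 CPM with overexpression and 9.68 ± 0.660 CPM in controls (SD, n = 3 each; log2 fold change -1.10, edgeR adjusted p = 1.08e-08). Lrp1, an endocytic receptor that clears MMPs and TIMPs, averaged 206 ± 9.24 CPM with overexpression and 547 ± 10.1 CPM in controls, a 2.65-fold fall. Basigin (Bsg), known for inducing MMPs in neighbouring cells, fell 1.58-fold at a log2 fold change of -0.66, which became 0.07 with the length trend removed. The iRhoms that carry Adam17 to the cell surface were both lower, while Adam17 was higher: Rhbdf2 averaged 45.9 ± 3.93 CPM with overexpression and 72.6 ± 3.99 CPM in controls (log2 fold change -0.66, edgeR adjusted p = 2.15e-16), and Rhbdf1 had a log2 fold change of -0.24. The enhancers of procollagen C-proteinase went apart, with Pcolce 8.36-fold lower and Pcolce2 4.75-fold higher.

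Of 10 tested matrix substrates 5 were higher and 3 lower, or 4 and 4 with the length trend removed, and their median turned to -0.12 there from 0.09. Of 23 tested membrane proteins that ADAMs are known to shed 12 were higher and 8 lower, or 14 and 7 with the length trend removed. Counts in these lists without removal of the length trend stand beside 42.1% higher and 43.9% lower over all tested genes. Counts with the trend removed have no such background here, and the median of all tested genes was 0.16 under that setting. Among the shed proteins, the receptor tyrosine kinase Met rose 4.58-fold, averaging 294 ± 2.59 CPM with overexpression and 64.3 ± 3.76 CPM in controls. Axl, with the smallest p of the related genes, averaged 1297 ± 7.25 CPM with overexpression and 468 ± 1.47 CPM in controls, a 2.77-fold rise (edgeR adjusted p = 7.73e-55). The membrane-bound chemokine Cx3cl1, a substrate of Adam10 and Adam17, fell 4.49-fold, averaging 36.0 ± 2.82 CPM with overexpression and 161 ± 3.09 CPM in controls. Of 4 tested ADAMTS-like genes 2 were lower and none higher, and Bmp1, the procollagen C-proteinase, was the 1 tested gene among 9 other metzincins and was lower.

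In the authors' deposited table, 59 of the members are listed and 30 have an adjusted p under 0.05, 14 higher and 16 lower, where 63.8% of all 15710 genes listed there pass. Of these, 29 were called by edgeR in the same direction. The remaining 1 is Mmp17, with a log2 fold change of -2.75 and an adjusted p of 0.0145 in the authors' deposited table, which was below the count filter here.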

How the data were processed

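Polyadenylated RNA of 3 overexpression and 3 control libraries of PAM212 cells had been counted per gene. The authors deposited raw read counts and FPKM values (counts per gene length and library size, per the file headers) and a table of their own log2 fold changes and adjusted p-values. The submitters' processing notes name HISAT2, HTSeq, DESeq and the build mm9, with no version, strand setting or treatment of shared reads. The deposited spans of 79 of 79 members, and of 21604 of all 21936 genes, equal those of GENCODE M21 on GRCm38, so coordinates are those of GRCm38.

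Counts were fitted over the whole table with edgeR 4.0.16 in R 4.3.3 (filterByExpr with a minimum count of 10, TMM, robust quasi-likelihood F test, two-sided), and p-values were adjusted by Benjamini-Hochberg over all 11809 genes tested, with 0.05 as the threshold. The common biological coefficient of variation was 2.93%. Each SE was derived as the size of the log2 fold change over the square root of F. CPM values use TMM sizes, and errors are SD over 3 libraries. Intervals are exact, at 95%, and cover counting error only. The scripts were tested on simulated counts.

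The members and lists were chosen with earlier results of these data known. Values in every library are given for the Timp genes, Adam10, Adam17, the 8 largest called rises and 8 largest called falls that reach 1 CPM in a group mean, and the 5 members highest in FPKM. Other members are named with fold or test values only. Alternatives were RLE and upper quartile scaling, DESeq2 1.42.0, no filter, a minimum fold of 1.5, removal of a loess trend with gene length (span 0.5), the replicate number as a block, and leaving out each library. Seed and AP-1 motifs were searched as exact letters in GENCODE 3′ UTRs of at least 50 bases and in RefSeq promoters (GRCm38.p6). RefSeq promoters were found for 49 of the 79 member symbols.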

Additional observations from a re-analysis of the deposited data

How the results depend on the processing

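For the 23 members with values in every library, 14 settings gave 322 log2 fold changes, where the minimum-fold setting keeps the main estimate. Of these, 308 kept their direction and their side of the threshold, 7 lost the call, 2 gained it and 5 changed sign. Most of the 23 were chosen for large called changes, which favours stable calls, so this count does not stand for all tested members. Among the others, Adamts14 was called lower in 5 of 14 settings and Adam22 higher in 6. Adam9 and Adam8 kept their calls in all 14. Testing against a minimum change of 1.5-fold left 5947 genes called over the whole table, against 10159 without it. This minimum left 9 members higher and 13 lower, against 15 and 16, and 14 related genes higher and 22 lower, against 25 and 33. Among the members with values in every library, the calls of Mmp14, Adam17, Adam10, Timp1 and Timp2 were lost. Upper quartile scaling turned Timp1 to -0.014, Timp2 to -0.16 and Adam10 to -0.00385, and removal of the length trend turned Mmp3 to 0.66, also with the replicate block (0.66); the cause was not tested. Leaving out each library in turn gave 10016 to 10118 genes called, 13 to 15 members higher and 15 to 18 lower, and 23 to 26 related genes higher and 31 to 33 lower. Libraries with the same replicate number in their titles showed no shared deviation, with correlations of -0.00479, -0.00307 and -0.0309. Such small values cannot show whether these libraries were prepared or cultured together. With the number as a block, 10116 genes were called, with 15 members higher and 16 lower and 23 related genes higher and 33 lower. Precision is limited for members with few counts in a group, such as Mmp28, Mmp1b and Mmp24.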
